A study of Mus musculus with 4 samples.

Results

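Fc receptors bind the constant part of antibodies, and the Fc receptor-like genes encode relatives of them. The genes described here were 10 named members of both families: Fcmr, Fcer2a, Fcgr2b, Fcrl1, Fcrl5, Fcrl6, Fcrla, Fcrlb, Fcgrt and Fcer1g. They were named by gene symbol, with earlier results of these data already known. Each of 9 members had 1 probe set with that symbol alone in the platform annotation, out of 19297 genes measured, and Fcgrt, the neonatal Fc receptor, was not analysed here. Values are the authors' log2 expression, in which a difference of 1 is a doubling.

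RNA of whole spleen was measured in 4 mice of strain 129Sv, with 1 array each. The wild type mice had the genotype RBP-J flox/flox;Ren1d+/+, were female, 80 and 81 days old, and had spleens of 0.12 and 0.16 g. The leukaemic mice, labelled B cell leukemic, were RBP-J flox/flox;Ren1dcre/cre. Leukaemic replicate 1 was a female of 107 days with a spleen of 0.7 g, and leukaemic replicate 2 a male of 93 days with a spleen of 0.47 g. All 4 mice thus carried floxed alleles of RBP-J, the DNA-binding partner of Notch receptors, and the groups differed in cre at the renin locus, which acts in cells that have used that locus. Cre, any action of it on RBP-J, the Ren1d genotype, age and spleen weight cannot be told apart from the leukaemia. Nor can sex be told apart from the individual in leukaemic replicate 2.

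B cells use some of these receptors to read the antibody already present around them. Fcgr2b is the inhibitory receptor for IgG, Fcer2a (CD23) binds IgE with low affinity and Fcmr binds IgM. Fcrl1 and Fcrl5 are surface proteins of B cells, while Fcrla and Fcrlb stay inside the cell, and Fcer1g is the signalling chain through which activating Fc receptors of myeloid and natural killer (NK) cells work. In the spleen, CD23 is a marker of follicular B cells, and precursor B cells lack many of the receptors that mature B cells carry.

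Array medians lay between 7.96 and 8.03. Wild type replicate 2 stood apart, with a lower quartile of 6.62 against 6.43 to 6.47 on the other arrays and an upper quartile of 9.50 against 9.58 to 9.59. It also held RNA of exocrine pancreas: the mean log2 level of 8 measured pancreas genes was 11.90 there and 6.70 to 6.81 in the others. Without it, the differences of the 8 members with lower values ran from -2.19 (Fcmr) to -0.10 (Fcrlb), and that of Fcrl6 was 2.76. The B lineage was measured in all spleens, with Cd79a, a chain of the B cell receptor, at 12.28 to 12.54. Of all genes that passed the test, 58.1% were higher in leukaemic spleen, and 70.4% after each array was centred on its median.

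Leukaemic spleens had lower values of the B cell surface receptors and a high value of Fcrl6 in 1 mouse. Fcmr and Fcrl1 fell, by 2.01 and 1.27 on the log2 scale, and were the members that passed the test (limma, Benjamini-Hochberg adjusted p under 0.05 over all genes). Of all genes, 1.03% were called lower and 1.43% higher, 2.46% together, against 2 of 9 members lower and 0 higher. Arrays of the groups did not overlap for all 9 members, 8 lower and 1 higher in leukaemic spleen, where 26.2% of all genes were lower without overlap and 23.0% higher. The median difference was -0.54 over the 9 members and -0.03 over all genes. Leaving out either wild type mouse left 0 members called; of all genes 12 were then called higher and 26 lower without replicate 1, and 0 and 0 without replicate 2 (4501 and 3142 at an unadjusted limma p under 0.05, against 3989 with all arrays). In bulk tissue, fewer cells of a type and less RNA per cell cannot be told apart.

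**Figure D1:**
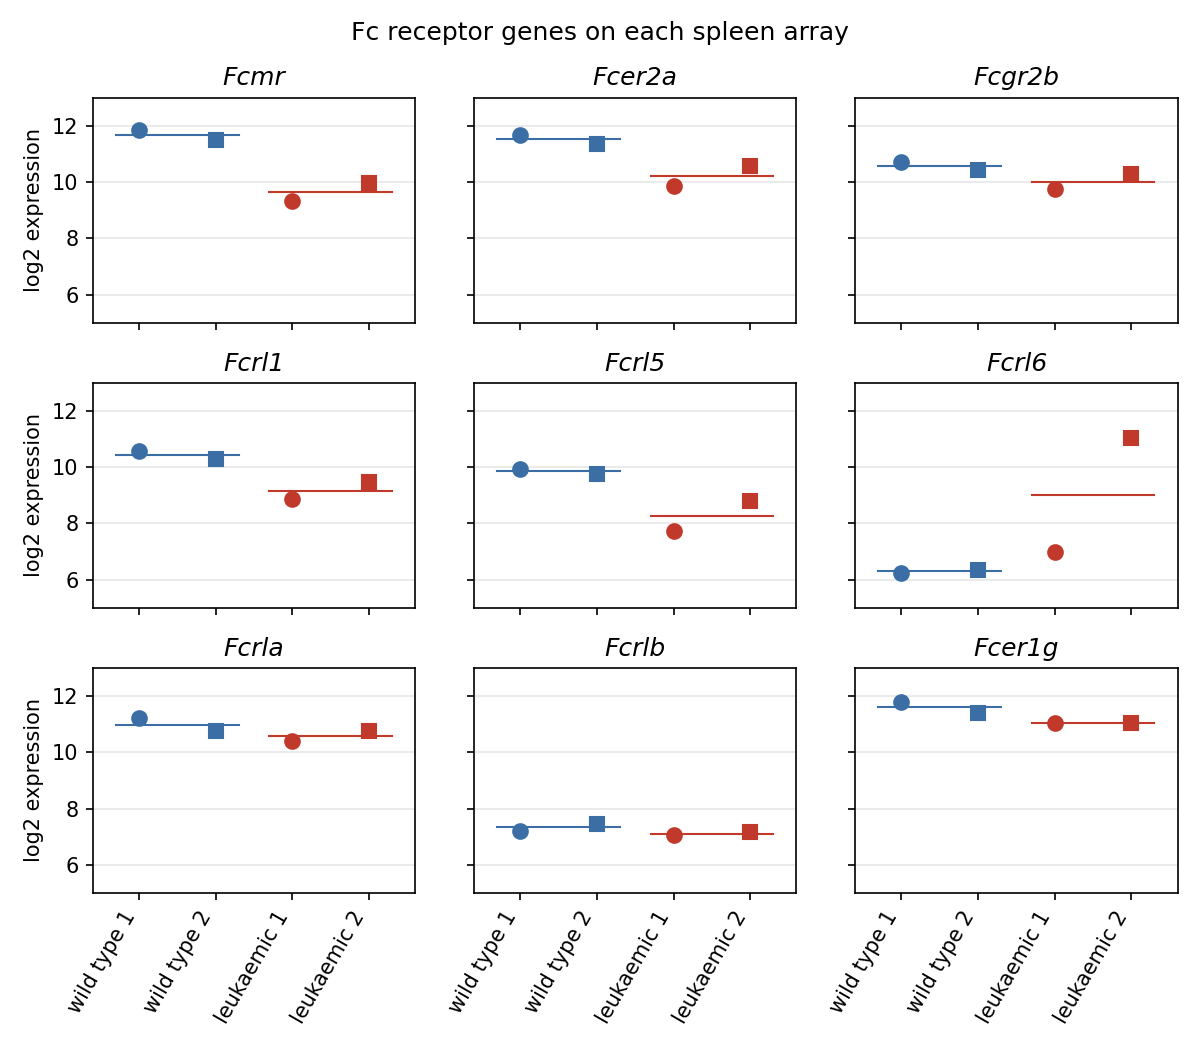
Log2 expression (vertical axis) of the 9 measured genes on the 4 arrays (horizontal axis), with wild type in blue, leukaemic in red and a line at each group mean. Fcmr fell from 11.85 and 11.50 to 9.33 and 9.99, and Fcrl6 stands at 11.04 in leukaemic replicate 2 against 6.24 to 6.97 in the other arrays.

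Among receptors for antibody classes, Fcmr showed the largest fall of the 9 genes. Wild type spleens read 11.85 and 11.50, leukaemic replicate 1 read 9.33 and replicate 2 read 9.99. Both leukaemic spleens lay at least 1.51 below both wild type spleens. The means were 11.67 ± 0.25 and 9.66 ± 0.46 (SD, n = 2), a 4.03-fold lower level in leukaemic spleen (SE 0.24 on the log2 scale, limma adjusted p = 0.018). The fall exceeded the spread in the fit of all arrays, and adjusted p was 0.149 without either wild type mouse.

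Fcer2a, the IgE receptor CD23, read 11.69 and 11.38 in the controls, 9.87 in leukaemic replicate 1 and 10.59 in replicate 2. The groups stood 0.79 apart at their nearest arrays. The difference of -1.30 (SE 0.25, 95% interval -1.90 to -0.71) narrowly missed the threshold (limma adjusted p = 0.052). It was called under 4 alternative settings that kept all arrays, given in the closing section. The difference was -1.66 without leukaemic replicate 2 and -0.94 without leukaemic replicate 1. Without wild type replicate 1 it was -1.14, and without wild type replicate 2 it was -1.46. CD23 binds the complement receptor CD21, encoded by Cr2, and is released from the cell by the protease Adam10. Cr2 fell by 1.86 on the log2 scale (SE 0.24, limma adjusted p = 0.021), and Adam10 differed by -0.07 (SE 0.14, limma adjusted p = 0.87).

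Fcer2a has 3 start sites in the RefSeq table of assembly GRCm38.p6, and is a gene for which regulation by Notch and RBP-J has been described in B cells. The 250 bases before each start were searched on both strands for TGGGAA, the core letters bound by RBP-J, for GGAAGT, the core of ETS factor sites, and for CCCNNGGG, an EBF1 core. TGGGAA and GGAAGT can overlap. The letters of these motifs were settled after the windows of the 10 genes had been seen. TGGGAA stood in 3 of 12 windows of the 10 genes and in 21.6% of 32851 RefSeq windows. Those of Fcer2a are shown because 2 of its 3 windows hold it. Capitals mark matches to any of the motifs, and the first 2 sequences run 5′ to 3′ up to the base before the start, on the minus strand at chr8:3694175-3694424 and chr8:3690862-3691111. The most upstream start had ACTTCC, the other strand of GGAAGT, 113 bases before it and no TGGGAA. The middle start had TTCCCA, the other strand of TGGGAA, 248 and 168 bases before it. At the most downstream start TGGGAA lay 205 bases upstream, and 30 bases around it are given (minus strand, chr8:3690578-3690607). The probe set does not separate transcripts of these starts.
Fcer2a, most upstream start: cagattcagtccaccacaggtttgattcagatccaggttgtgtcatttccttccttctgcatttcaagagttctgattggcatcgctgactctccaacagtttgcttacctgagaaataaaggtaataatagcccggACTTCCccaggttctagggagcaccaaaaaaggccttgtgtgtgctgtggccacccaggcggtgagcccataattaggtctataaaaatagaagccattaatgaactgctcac
Fcer2a, middle start: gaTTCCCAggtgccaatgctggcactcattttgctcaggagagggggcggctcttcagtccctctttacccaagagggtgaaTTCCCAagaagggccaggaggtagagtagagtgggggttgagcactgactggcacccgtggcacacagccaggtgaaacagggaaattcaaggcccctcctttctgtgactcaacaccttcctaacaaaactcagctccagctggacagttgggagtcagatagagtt
Fcer2a, most downstream start, match with its surroundings: gatcaagagagtTGGGAAtcagaaccgact

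Fcgr2b, the inhibitory IgG receptor of B and myeloid cells, stood at 10.71 and 10.42 in the controls, at 9.75 in leukaemic replicate 1 and at 10.30 in replicate 2. Leukaemic replicate 2 lay 0.13 below the nearest wild type array. Its difference of -0.54 (SE 0.21, 95% interval -1.05 to -0.04) missed the threshold (limma adjusted p = 0.21). Against the wild type mean, leukaemic replicate 1 lay at -0.82 and replicate 2 at -0.27. Inpp5d, the phosphatase SHIP that Fcgr2b recruits, differed by 0.36 (SE 0.15, limma adjusted p = 0.23).

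The Fc receptor-like genes of the B cell surface, Fcrl1 and Fcrl5, both read lower in leukaemic spleen without overlap. Fcrl1, whose tail carries activating-type motifs, read 10.59 and 10.29 in the controls, 8.88 in leukaemic replicate 1 and 9.46 in replicate 2. Every leukaemic value lay at least 0.83 below every wild type value. The means were 10.44 ± 0.21 and 9.17 ± 0.41 (SD, n = 2), a 2.41-fold lower level (SE 0.22 on the log2 scale, limma adjusted p = 0.042). That call ended after quantile normalization (adjusted p = 0.059), with all probe sets in the fit (0.053) and without wild type replicate 1 (0.17) or 2 (0.18).

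Fcrl5, which carries inhibitory motifs and in mice is found on marginal zone and B1 cells, was at 9.94 and 9.78 in wild type. Leukaemic replicates 1 and 2 read 7.74 and 8.79, so that the leukaemic mice differed by 1.05 from each other. Its difference of -1.59 (SE 0.32, 95% interval -2.34 to -0.84) missed the threshold (limma adjusted p = 0.054). The difference was -2.12 without leukaemic replicate 2 and -1.07 without leukaemic replicate 1. Without wild type replicate 1 it was -1.51, and without wild type replicate 2 it was -1.67. Fcrl1 and Fcrl5 are nearest neighbours among measured genes on chromosome 3. On their outer sides, Cd5l differed by 0.06 (SE 0.22, limma adjusted p = 0.93) and Etv3 by -0.29 (SE 0.14, limma adjusted p = 0.30).

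Upstream of both genes the letters ACTTCC stood close to the start. They were 28 and 15 bases before the start of Fcrl1 and 23 before that of Fcrl5. The windows are shown for this shared feature, with matches in capitals, both on the plus strand of GRCm38.p6, at chr3:87376137-87376386 and chr3:87435532-87435781. Counting the last 50 bases before the start, 4 of 12 windows of the 10 genes held this motif on either strand, those of Fcrl1, Fcrl5, Fcrl6 and Fcgr2b, against 5.83% of all 32851 windows. The limit of 50 bases was set after these positions had been seen, and over the whole 250 bases the motif stood in 6 of 12 windows against 19.7% of all. These genes include Fcrl6, with a higher value, beside members with lower ones, and a match is a description of the letters.
Fcrl1: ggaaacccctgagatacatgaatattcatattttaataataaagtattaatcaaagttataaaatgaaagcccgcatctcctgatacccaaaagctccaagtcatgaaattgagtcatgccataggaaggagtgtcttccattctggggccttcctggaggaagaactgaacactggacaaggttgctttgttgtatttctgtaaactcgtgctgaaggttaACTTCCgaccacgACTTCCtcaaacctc
Fcrl5: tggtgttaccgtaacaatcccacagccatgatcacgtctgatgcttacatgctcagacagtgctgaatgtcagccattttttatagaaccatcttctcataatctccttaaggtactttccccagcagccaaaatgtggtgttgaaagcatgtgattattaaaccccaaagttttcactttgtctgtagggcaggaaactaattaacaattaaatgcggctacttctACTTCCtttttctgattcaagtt

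Fcrl6 departed from the other members. It read 6.24 and 6.36 in wild type, 6.97 in leukaemic replicate 1 and 11.04 in replicate 2, the male. A single array was high, and leukaemic replicate 1 lay 0.61 above the nearest wild type array. The group means were 6.30 ± 0.08 and 9.0 ± 2.88 (SD, n = 2), and the difference of 2.70 had an SE of 1.11 and missed the threshold (limma adjusted p = 0.23). It was 0.67 without leukaemic replicate 2 (adjusted p = 0.25) and 4.74 without leukaemic replicate 1. The gap of 4.07 between the leukaemic mice was number 3 in size among 19297 genes, of which 1.48% had a gap of at least 1 there. Larger gaps belonged to Xist and Eif2s3y, which lie on the sex chromosomes. Detection calls were not used here, so the low readings are not shown to be above background.

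In mice, Fcrl6 has been described on early B lineage cells. Of 14 listed genes of precursor B cells, 11 were called higher and 0 lower, where 1.43% of all genes were called higher and 1.03% lower. In 13 of the 14, both leukaemic mice lay above both wild type mice. Igll1, a part of the surrogate light chain, was at 13.02 and 12.85 in leukaemic replicates 1 and 2, and Vpreb1, its partner, at 9.93 and 9.82. Dntt, the enzyme that adds bases at receptor gene joints, was highest on the same array as Fcrl6. It read 6.46 and 6.54 in wild type, 6.51 in leukaemic replicate 1 and 8.05 in replicate 2, and was not called (difference 0.78, SE 0.44, limma adjusted p = 0.39). Il7r, the receptor of interleukin 7, stood 0.95 higher in leukaemic replicate 2 than in replicate 1. The list as a whole did not share this order: 5 of the 14 genes were higher in replicate 2 and the other 9 lower, among them Bst1, a surface enzyme, by a difference of -0.87, and Enpep, an aminopeptidase of precursor B cells, by -0.35. In those 14 genes the list means of the leukaemic mice were 10.41 and 10.48.

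The 250 bases before the Fcrl6 start are given as those of the member that differed most between the leukaemic mice (minus strand, chr1:172602552-172602801, GRCm38.p6). ACTTCC lay 40 bases before the start, and neither TGGGAA nor CCCNNGGG was found in this window. The measured neighbours of Fcrl6 on chromosome 1 were Slamf8 and Dusp23. In leukaemic replicate 2 they stood lower than in replicate 1, by differences of -0.40 and -0.17, so the high reading was not shared by them.
Fcrl6: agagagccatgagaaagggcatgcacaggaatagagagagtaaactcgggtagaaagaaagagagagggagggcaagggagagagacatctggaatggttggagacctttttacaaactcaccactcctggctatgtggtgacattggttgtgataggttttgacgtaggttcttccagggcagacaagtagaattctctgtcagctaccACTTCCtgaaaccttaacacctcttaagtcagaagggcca

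**Figure D2:**
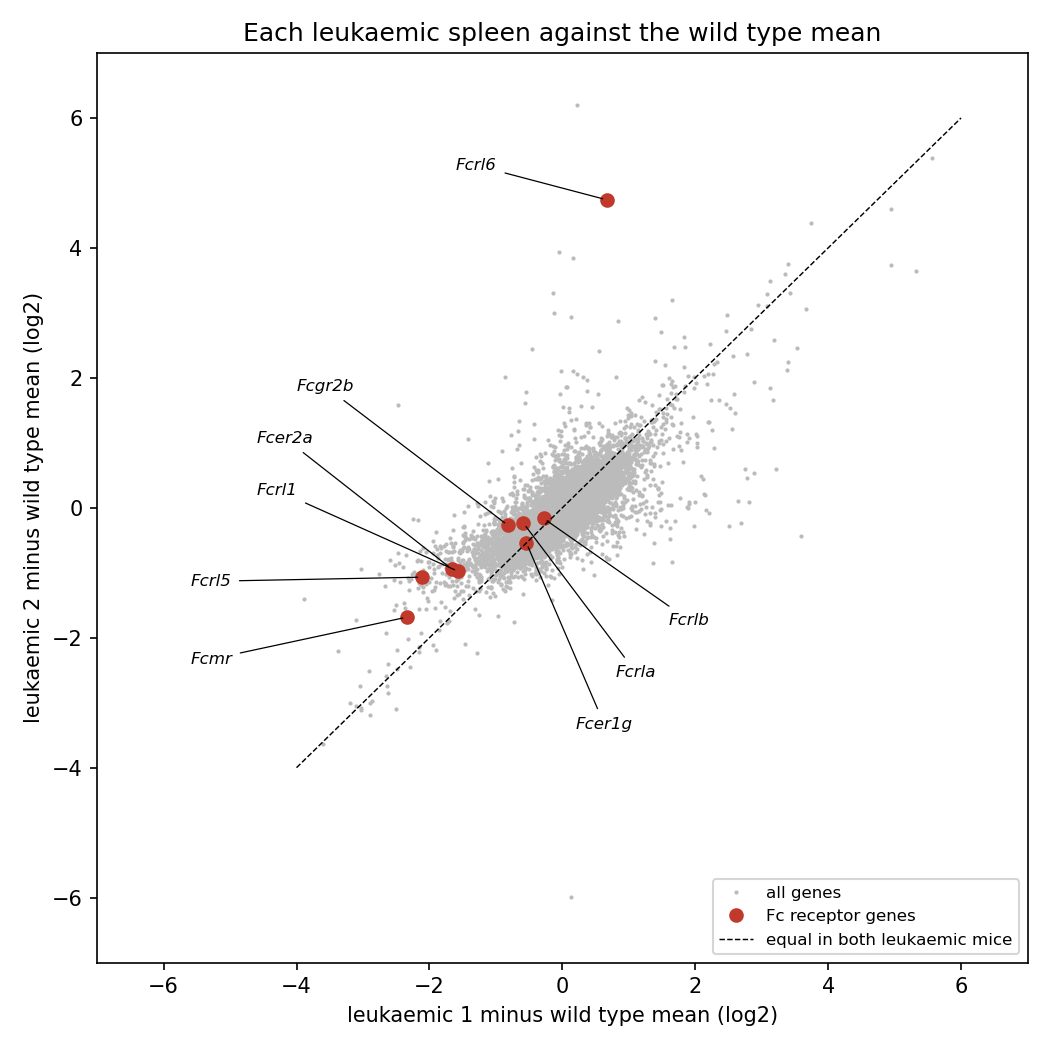
Each point is a gene, placed by its log2 value in leukaemic replicate 1 (horizontal) and leukaemic replicate 2 (vertical) minus the wild type mean, with the 9 measured Fc receptor genes in red. Fcrl6 lies at 0.67 and 4.74, far above the line of equal values, and Fcmr at -2.34 and -1.68.

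The intracellular Fc receptor-like genes and the signalling chain had smaller differences. Fcrla, a B lineage protein of the secretory pathway, read 11.22 and 10.75 in the controls, 10.40 in leukaemic replicate 1 and 10.75 in replicate 2, groups that were 0.0045 apart. For Fcrlb, its relative, the controls read 7.21 and 7.45 and the leukaemic mice 7.05 and 7.16. Neither passed, with differences of -0.41 (95% interval -0.90 to 0.08, limma adjusted p = 0.33) and -0.22 (95% interval -0.58 to 0.14, limma adjusted p = 0.50). Fcer1g was at 11.80 and 11.40 in the controls and at 11.06 in both leukaemic mice, a difference between the groups of -0.54 (SE 0.17, limma adjusted p = 0.14). It differed from most members in that the leukaemic mice read alike.

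Fcrlb, Fcrla, Fcgr2b, Fcgr4, Fcgr3 and Fcer1g lie in this order in 1 segment of chromosome 1 that holds 12 measured genes. None of the 12 was called, where 2.46% of all genes were called, and their median difference was -0.17. Neighbours in the segment went apart: Fcgr4 stood at 10.15 and 9.75 in the leukaemic mice and at 9.50 and 8.88 in the controls, beside the lower values of Fcgr2b. Fcgr4 encodes an activating IgG receptor of myeloid cells, and its difference of 0.76 (SE 0.24) missed the threshold (limma adjusted p = 0.14).

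The other receptors of antibodies and the beta chain of the IgE receptor formed a list of 8 genes. Of these 0 passed in either direction, where 2.46% of all genes passed, and 6 had negative differences (median -0.28). Among IgG receptors, Fcgr1 differed by -0.51 (SE 0.24) and Fcgr3 by -0.26 (SE 0.17). Fcamr, which binds IgM and IgA, was at 8.99 and 8.31 in the controls and 7.15 and 8.13 in the leukaemic mice, a difference of -1.01 (SE 0.35, limma adjusted p = 0.16). Fcer1a and Ms4a2, subunits of the high-affinity IgE receptor of mast cells, differed by -0.31 and 0.11. Pigr, which carries IgA across epithelia, and Trim21, a cytosolic antibody receptor, differed by -0.30 and -0.22.

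**Figure D3:**
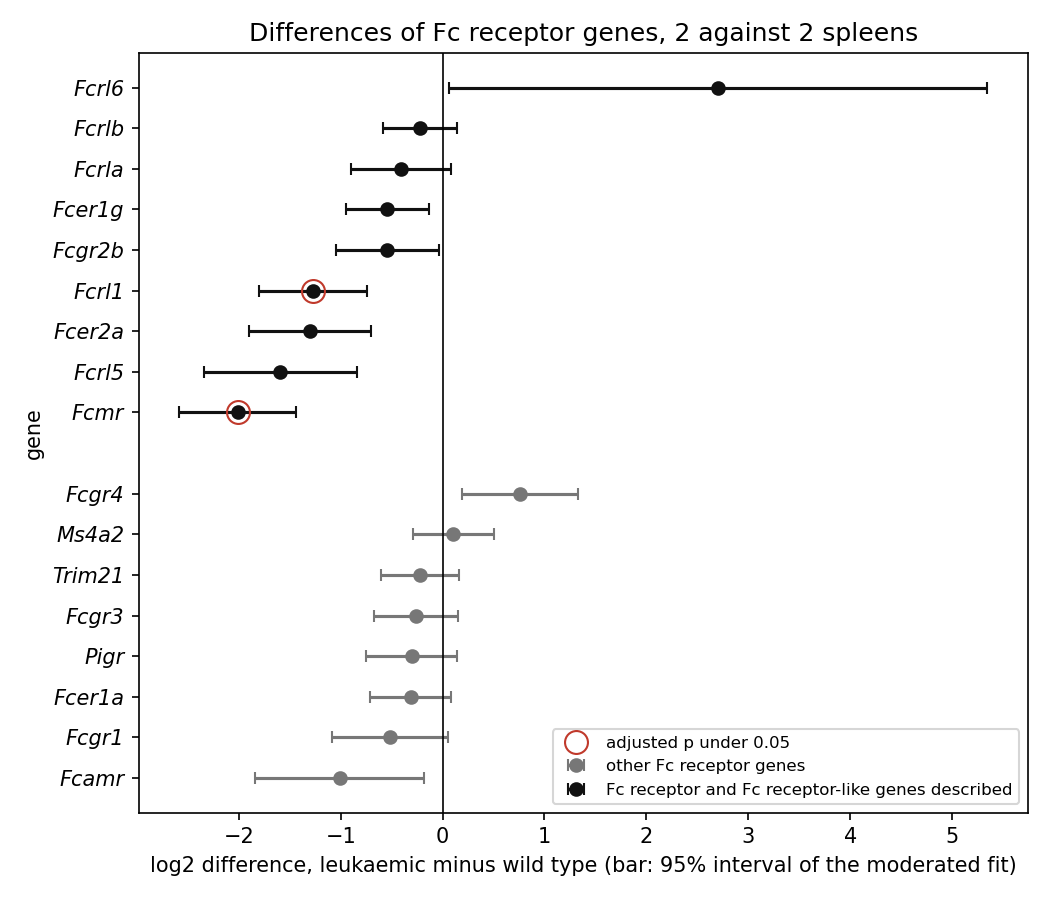
Log2 difference, leukaemic minus wild type, of the 9 genes (black) and of 8 other Fc receptor genes (grey), with 95% intervals of limma's moderated fit and a red ring around genes with an adjusted p under 0.05. Fcmr and Fcrl1 carry rings at -2.01 and -1.27, and the interval of Fcrl6 runs from 0.06 to 5.34.

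Partners of these receptors changed in 3 of 8 measured cases, all lower, where 1.03% of all genes were called lower. The 3 were Cr2, Cd22, an inhibitory receptor of B cells, and Cd247, a chain related to Fcer1g that T and NK cells use. Cd22 fell by 0.84 (SE 0.14, limma adjusted p = 0.035) and Cd247 by 1.17 (SE 0.21, limma adjusted p = 0.045) on the log2 scale. B2m, the light chain with which Fcgrt pairs, differed by -0.11 (SE 0.15). Cd79a and Cd79b, whose products form the signalling part of the B cell receptor, differed by 0.08 (95% interval -0.28 to 0.44) and -0.04 (95% interval -0.48 to 0.40). Tyrobp, another adaptor of myeloid and NK receptors, differed by -0.85 (SE 0.18, limma adjusted p = 0.062).

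Downstream signalling genes had 2 of 22 measured members lower, 0 higher and a median difference of -0.08. Of all genes, 1.03% were called lower and 1.43% higher. Ptpn6, the phosphatase SHP-1 recruited by inhibitory motifs, fell by 0.78 (SE 0.13, limma adjusted p = 0.040), and Lat, an adaptor of T cells and mast cells, fell by 1.47 (SE 0.23, limma adjusted p = 0.033). The kinases Syk and Btk differed by 0.00 (SE 0.19) and -0.41 (SE 0.14). Lat2, the related adaptor of B and myeloid cells, read 10.43 and 10.05 in the controls and 8.36 and 9.34 in the leukaemic mice (limma adjusted p = 0.067). Of 9 measured receptors that signal through Fcer1g, 1 fell and 0 rose (median -0.26). That gene was Ncr1, an activating NK cell receptor, at 8.86 and 8.64 in the controls and 6.09 and 6.82 in the leukaemic mice. Clec4n, the myeloid lectin Dectin-2, differed by -0.01 (SE 0.16).

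Marker lists of the cells that can carry these receptors were read from the same arrays. Some genes also stand in the lists above, among them Cr2, Lat and Ncr1. Calls over all genes were 1.03% lower and 1.43% higher. Mature B cell genes had 2 of 9 measured members lower, Cr2 and Ltb, and a median of -0.90; their mean log2 level was 10.83 and 10.52 in the controls, 9.33 in leukaemic replicate 1 and 9.93 in replicate 2. The list of B lineage genes, which includes Fcrla, had 2 of 11 higher and 1 lower, with means of 11.58 and 11.38 against 11.41 and 11.58. Leukaemic replicate 1 was below replicate 2 in 8 of 9 Fc receptor genes, the exception being Fcer1g. Among the 8 that were lower without overlap the count was 7, against 56.2% of all genes lower without overlap. The same order held in all 9 mature B cell genes, and also in 12 of 12 neutrophil, 9 of 9 T cell, 9 of 10 NK cell, 7 of 7 plasma cell and 10 of 11 B lineage genes, but in 6 of 12 macrophage and 5 of 10 dendritic cell genes. Detection against background was not measured, so these readings do not show which markers are present. Their part in the Fc receptor differences was not tested.

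Cells other than B cells also carry several members. T cell markers had 6 of 9 lower (median -1.57), NK cell markers 5 of 10 (-1.43), dendritic cell markers 6 of 10 (-1.28) and neutrophil markers 3 of 12 (-1.24), each with 0 higher. Macrophage markers had 0 of 12 called and a median of -0.46. Mean levels of the macrophage list were 10.88 and 10.65 in the controls and 10.22 and 10.30 in the leukaemic mice, those of the neutrophil list 11.07 in both wild type spleens and 9.48 and 10.34, and those of the T cell list 10.34 and 9.88 against 8.14 and 8.97. NK cell list means were 8.61 and 8.24 against 6.96 and 7.48, and dendritic cell list means 9.09 and 8.75 against 7.66 and 7.61. Mast cell and basophil markers had 0 of 10 called and a median of -0.07. Plasma cell markers had 1 of 7 higher, Irf4, and a median of -0.34. What these lists contribute to the Fc receptor values was not tested.

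**Figure D4:**
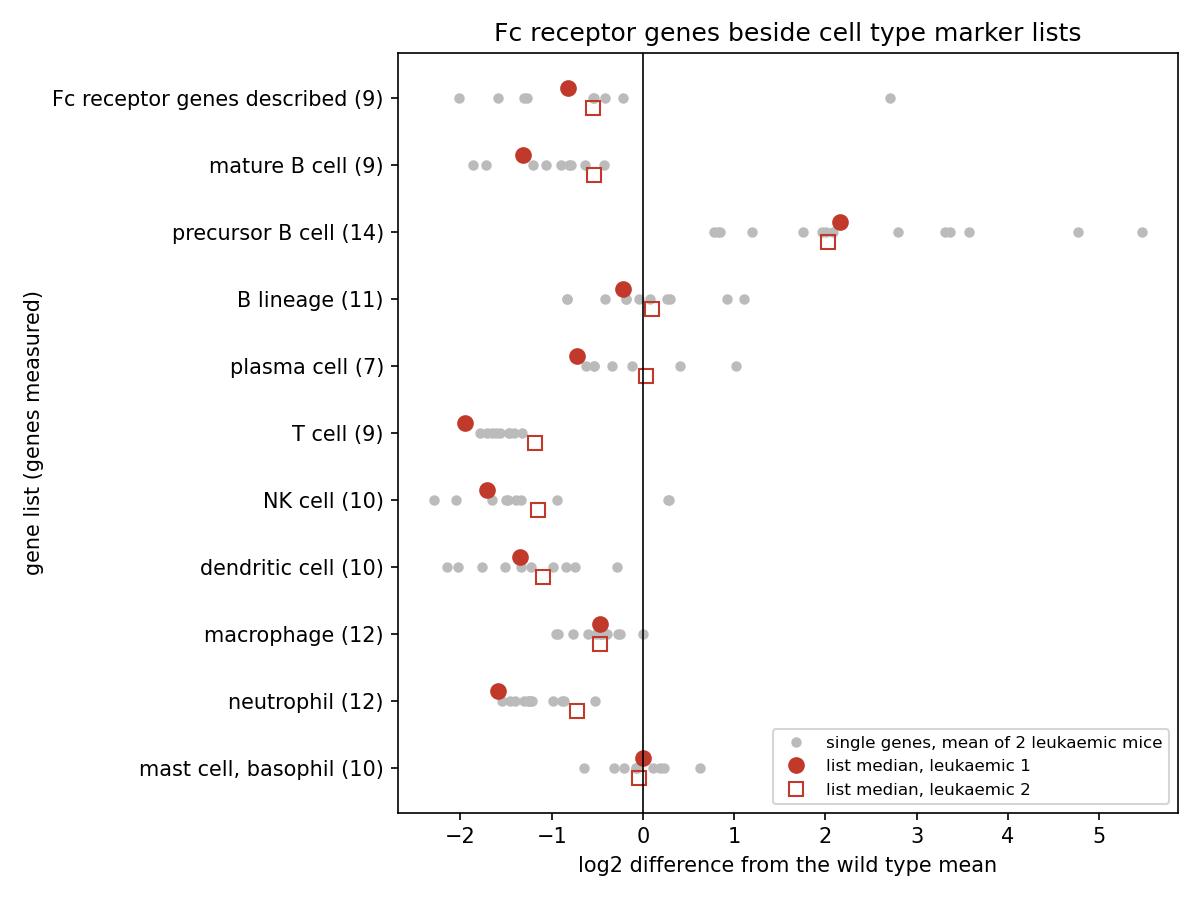
Log2 difference from the wild type mean (horizontal) for the Fc receptor genes and 10 marker lists (vertical, with the number of genes measured); grey dots are single genes, red dots and open squares the list medians in leukaemic replicates 1 and 2. The median of the 9 Fc receptor genes is -0.82 and -0.54, and that of the mature B cell list -1.31 and -0.54.

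Genes with the array pattern nearest to a member were sought by the Euclidean distance between mean-centred log2 profiles over 4 arrays, among 1526 genes with a range of at least 1. This was done for the called members and those with a gap of at least 1 within a group. Nearest to Fcmr were Cr2 (distance 0.16), Dtx1 (0.21), a regulator of Notch signalling, and Ctsw (0.22), a cathepsin of cytotoxic cells. Nearest to Fcrl1 were Camp (0.056), an antimicrobial peptide of neutrophils, the MHC class II gene H2-Ab1 (0.083) and Xkrx (0.090). Nearest to Fcrl5 were Kmo (0.10), an enzyme of tryptophan breakdown, Ciita (0.12), the regulator of MHC class II genes, and Sidt1 (0.12). Genes of B cells, neutrophils and cytotoxic cells thus stood side by side, and a distance over 4 arrays does not separate them. Fcrl6 had no neighbour as close: Fetub lay at 0.75, and the Y-linked genes Uty and Kdm5d at 0.77 and 1.21.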

How the data were processed

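Total RNA of 4 mouse spleens was hybridised to Affymetrix whole-transcript arrays, 1 mouse per array. The values the authors deposited are log2 expression per probe set; RMA, R 2.15.0 and limma 3.12.1 are named in the submitters' processing notes, with settings and order not given in the sources used here. RMA can make array distributions alike, and a change shared by most genes may then not show. The deposited distributions were not fully alike, with a lower quartile of 6.62 in wild type replicate 2 against 6.43 to 6.47 on the other arrays. Of 23309 probe sets, 20729 had 1 gene symbol in the platform annotation, 1174 several and 1406 none; only the first were named. The probe set with the highest 4-array mean stood for each of 19297 genes. Groups came from sample titles.

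The leukaemic group was tested against wild type by limma 3.58.1 (lmFit, then eBayes with its defaults, without covariates; R 4.3.3), with Benjamini-Hochberg adjustment over all genes and a threshold of 0.05. The fit had 2 residual and an estimated 4.83 prior degrees of freedom. SE and 95% intervals are those of the moderated fit. Precision is limited by the number of arrays. The scripts were tested on simulated data. The design text calls the replicates individual mice, so the spread between arrays includes that between animals.

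The 10 members and the gene lists were chosen with earlier results of these data known. Named were the members, genes of the Fc receptor, partner and signalling lists and up to 2 genes of each marker list. The nearest genes by array pattern and the chromosomal neighbours were named too. Cd79a, Dntt, Il7r and Etv3 were given for their relation to a member. Vpreb1 and Bst1 were named beyond this rule, as were Xist, Fcrls and the genes that stood high on a single array. Gene order and upstream sequences came from RefSeq tables of GRCm38.p6. Alternatives covered array scaling, dim genes, the variance prior, probe set choice, a replicate block and each mouse left out. Descriptions used Python 3.11.15, pandas 2.3.3 and numpy 2.4.6.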

Additional observations from a re-analysis of the deposited data

How the results depend on the processing

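Of 108 combinations of a member and an alternative, 90 kept the direction and the side of the threshold, 12 moved past it, 6 fell short of it and 0 changed sign; groups that do not overlap fix the sign under the omission of a mouse. Members called numbered 2 with all arrays (Fcmr and Fcrl1), 1 after quantile normalization or with all probe sets in the fit (Fcmr), and 4 with a variance trend or with the mean of a gene's probe sets (Fcer2a and Fcrl5 added). A robust prior added Fcer2a. With each mouse left out the number ranged from 0 to 4: 0 without either wild type mouse, 4 without leukaemic replicate 1 (Fcmr, Fcrl1, Fcrl5 and Fcrl6) and 4 without leukaemic replicate 2 (Fcmr, Fcer2a, Fcrl1 and Fcrl5). In the whole table, genes called higher numbered 276 and lower 199; these became 168 and 93 after quantile normalization, 501 and 473 with a robust prior, and 121 lower with all probe sets in the fit. With each mouse left out they ranged from 0 to 450 higher and from 0 to 593 lower. Such fits have 1 sample in a group, which is assumed to vary like the other group, and the estimated prior degrees of freedom fell to 2.79 when a wild type mouse was omitted and became infinite when a leukaemic one was, so their counts are not directly comparable. With the replicate number as a block, 785 genes were higher and 908 lower, and 5 members were called (Fcmr, Fcer2a, Fcrl1, Fcrl5 and Fcrl6). Replicate differences in the groups correlated at -0.0858 over 20729 probe sets. The labels name no batch, and whether equal replicate numbers mark a shared batch was not tested. The cause of the other changes was not tested. Detection against background was not measured here, which leaves the low readings of Fcrl6 and Fcrlb without a floor.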

Other observations

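Fcrl6 was 1 of 10 genes that stood at least 2 (log2) above all 3 other arrays in leukaemic replicate 2, a list drawn up after the values were seen. With it were the Y-linked genes Eif2s3y, Uty and Kdm5d, as that mouse was the male. The others were Fetub, at 9.0 against 5.11 to 5.31, Ccdc38, Cpn1, Lonrf3, Amdhd1 and Tmem132e. Leukaemic replicate 1 also had 10 such genes, none of them an Fc receptor gene, led by Radx, at 9.63 against 5.60 to 6.05. Vsig4, a complement receptor of tissue macrophages, was among them, at 10.13 against 6.50 to 7.50. Wild type replicate 2 had 29 such genes and wild type replicate 1 had 0. With 2 mice a group these are values of single animals, and no test compares them.

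Fcrls, a further Fc receptor-like gene outside the naming rule, read 5.69 and 5.82 in the controls and 5.52 and 5.45 in the leukaemic mice (difference -0.27, SE 0.14, limma adjusted p = 0.35).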
